A study of Mus musculus with 4 samples.

Results

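The distal 500 kb of the 19 mouse autosomes was taken as all CCGG sites within 500000 bp of the highest CCGG position that the deposited tables list on each autosome. This gave 6158 of 1594137 sites in all, with between 171 sites (chromosome 10) and 748 sites (chromosome 4) per autosome and a median of 296. The 19141 sites lying beyond 500 kb and up to 2 Mb from the same position, called the inner window here, served as the nearest neighbours for comparison. Both windows are defined by position alone, so no methylation value enters the rule. They were, however, chosen with earlier results of these data known. The cells were MC1-ZE7, 1 line of mouse embryonic stem cells of strain 129S6/SvEvTac at passage 31, grown without feeders on gelatin with LIF and carrying the fluorescent protein Emerald under the promoter of Zscan4c. They were sorted by fluorescence into Emerald-high cells and Emerald-negative cells, and both fractions carry the reporter. DNA of each fraction was cut with HpaII and, separately, with MspI, and a short tag beside each cut was sequenced (HELP tagging), which gave 4 libraries with 1 library per group. No expression was measured in these libraries, so the sort could not be checked against a marker gene, and no difference between fractions below has a replicate check.

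Mouse autosomes carry their centromere near one end, so the highest position of each lies at the end far from the centromere. The subtelomere is the stretch between the telomere repeats and the body of the chromosome, and in mouse as in other mammals it is a mixture of genes, CpG islands and sequence shared between chromosome ends. In embryonic stem cells, subtelomeric DNA methylation is known as one of the features that go with telomere length and recombination, and Zscan4, a gene family of the 2-cell embryo that switches on briefly in a few embryonic stem cells at a time, is known to take part in telomere maintenance there. HpaII cuts CCGG only when its central CG is unmethylated, and MspI cuts CCGG in either state. The ratio of HpaII to MspI tags therefore rises as methylation falls. The level used below is the log2 ratio of HpaII to MspI tags after each library is divided by its total, so a level of 0 is the average of the library, and the difference subtracts the Emerald-negative level from the Emerald-high one. A level averages over cells and alleles, so fewer unmethylated copies and fewer cells with unmethylated copies cannot be told apart.

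The sites of a CpG-rich promoter show what such a window holds. The sequences printed here are RefSeq promoters of GRCm38.p6, each 300 bases from 250 before to 50 after a transcript start, in lower case with CCGG, the site cut by both enzymes, in capitals. CCGG reads the same on both strands. Of 32851 such promoter sequences, 52.8% hold at least 1 CCGG and 21.1% hold at least 3. The 3 promoters, of the 17 distal ones with at least 10 tags in both MspI libraries, whose intervals for the difference lay below 0 are shown (Noc2l, Paip1 and Rgs19), with the promoter of the highest difference (AW011738) and one with little difference and many tags (Rfc3). Noc2l, Paip1 and Rgs19 have a second RefSeq start window each, whose CCGG sites are counted in their values but which is not printed.
Noc2l (chr4:156235765-156236064, plus strand): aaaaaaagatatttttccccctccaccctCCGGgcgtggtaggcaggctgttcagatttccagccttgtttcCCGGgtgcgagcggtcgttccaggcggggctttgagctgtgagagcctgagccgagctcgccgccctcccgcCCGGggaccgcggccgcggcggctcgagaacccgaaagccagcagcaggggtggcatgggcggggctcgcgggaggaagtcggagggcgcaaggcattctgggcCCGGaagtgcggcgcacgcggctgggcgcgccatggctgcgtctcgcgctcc
Paip1 (chr13:119428350-119428649, plus strand): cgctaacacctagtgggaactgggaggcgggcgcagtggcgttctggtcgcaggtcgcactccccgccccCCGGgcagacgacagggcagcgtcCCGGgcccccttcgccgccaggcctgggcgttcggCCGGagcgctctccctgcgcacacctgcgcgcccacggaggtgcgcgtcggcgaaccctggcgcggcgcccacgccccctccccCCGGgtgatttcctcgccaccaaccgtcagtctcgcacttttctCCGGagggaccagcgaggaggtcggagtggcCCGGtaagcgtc
Rgs19 (chr2:181693761-181694060, minus strand): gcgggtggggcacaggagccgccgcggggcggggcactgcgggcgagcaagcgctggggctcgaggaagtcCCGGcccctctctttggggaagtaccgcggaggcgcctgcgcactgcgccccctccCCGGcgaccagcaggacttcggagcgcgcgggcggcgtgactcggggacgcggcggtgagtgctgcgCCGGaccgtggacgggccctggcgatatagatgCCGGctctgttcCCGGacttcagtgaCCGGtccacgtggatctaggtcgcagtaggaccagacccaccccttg
AW011738 (chr4:156203034-156203333, plus strand): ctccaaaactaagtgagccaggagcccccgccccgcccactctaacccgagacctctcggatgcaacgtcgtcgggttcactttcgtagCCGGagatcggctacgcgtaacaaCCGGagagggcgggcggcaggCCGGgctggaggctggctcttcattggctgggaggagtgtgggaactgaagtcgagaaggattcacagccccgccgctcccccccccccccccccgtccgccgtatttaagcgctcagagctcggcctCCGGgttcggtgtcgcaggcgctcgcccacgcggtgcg
Rfc3 (chr5:151651159-151651458, minus strand): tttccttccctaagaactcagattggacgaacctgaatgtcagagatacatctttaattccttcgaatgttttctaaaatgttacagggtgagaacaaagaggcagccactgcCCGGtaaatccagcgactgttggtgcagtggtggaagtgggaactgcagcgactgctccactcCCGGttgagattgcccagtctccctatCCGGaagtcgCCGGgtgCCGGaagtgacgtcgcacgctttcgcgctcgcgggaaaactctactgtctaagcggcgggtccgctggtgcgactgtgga
Noc2l encodes a nucleolar protein that inhibits histone acetyltransferases, Paip1 a partner of poly(A)-binding protein in translation, Rgs19 an accelerator of G protein GTPase activity, and Rfc3 a subunit of the clamp loader of DNA replication. Tag values for these promoters are given with the dense clusters below.

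The windows held 22183 HpaII and 28475 MspI tags in the Emerald-high fraction, and 40344 HpaII and 28200 MspI tags in the Emerald-negative fraction. Whole libraries had 5662614 HpaII and 9372711 MspI tags in the Emerald-high fraction and 9535691 HpaII and 9307616 MspI tags in the Emerald-negative fraction, so the Emerald-high HpaII library was the shallowest. Sites were classed by how many CCGG, themselves included, lie within 500 bp to each side. Isolated sites have 1 and dense sites, spaced as in CpG islands, have 10 or more. By number of sites, the distal windows were slightly richer in dense neighbourhoods than the inner windows. Isolated sites made up 32.4% of distal and 34.2% of inner sites, and those with 2 to 4 made up 41.6% of distal and 42.8% of inner sites. Sites with 5 to 9 made up 16.2% of distal and 13.4% of inner sites, and dense sites 9.87% of distal and 9.60% of inner sites. On the rest of the autosomes the dense share was 8.17%. By Emerald-high MspI tags the order of the dense share turned, with 4.76% of distal and 5.53% of inner tags. Sites with 5 to 9 still gave more at the ends, with 14.9% of distal and 12.1% of inner tags. All levels below were therefore read within classes as well as over all sites.

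Isolated sites were cut more often by HpaII, relative to MspI, near the chromosome ends in both fractions. Their level was -0.07 in the distal and -0.32 in the inner window of the Emerald-high fraction, against -0.48 in the distal and -0.81 in the inner window of the Emerald-negative fraction. On the rest of the autosomes the level of isolated sites was -0.49 in the Emerald-high fraction and -0.98 in the Emerald-negative fraction. The distal level exceeded the inner one by 0.25 in the Emerald-high fraction (95% Poisson interval 0.20 to 0.31) and by 0.33 in the Emerald-negative fraction (0.29 to 0.38), or 1.19-fold and 1.26-fold in HpaII/MspI. The intervals cover counting error only. Over the 19 autosomes taken one by one the same difference averaged 0.25 ± 0.35 in the Emerald-high fraction and 0.32 ± 0.46 in the Emerald-negative fraction (SD, 19 autosomes, which share their libraries), and it was above 0 on 14 of 19 in each fraction. It stayed above 0, with its interval, in both fractions under every alternative run, between 0.11 and 0.48 in the Emerald-high fraction and between 0.16 and 0.66 in the Emerald-negative fraction.

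The highest level of isolated sites was at the very end. In the outermost 100 kb, 381 isolated sites carried 1156 HpaII and 1723 MspI tags in the Emerald-high fraction, a level of 0.15 (0.04 to 0.26), against 1770 HpaII and 1914 MspI tags in the Emerald-negative fraction, a level of -0.15 (-0.24 to -0.05). In Emerald-high cells the next 4 steps of 100 kb had levels of -0.07, -0.30, -0.08 and -0.07, and the 15 inner steps lay between -0.44 and -0.17. Emerald-negative cells had -0.45, -0.63, -0.75 and -0.43 in those 4 steps and between -0.99 and -0.70 in the inner ones. The outermost step thus lay above each of the other 19 steps in both fractions, while the other 4 distal steps showed no steady order. Sites whose tags were whole numbers in all 4 libraries, which leaves out sites with fractional tags, gave 0.12 and -0.26 in the outermost step. Leaving out chromosome 3 took the Emerald-high interval of that step across 0, at a level of 0.09, and leaving out chromosome 2 did so for Emerald-negative cells, at -0.06.

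**Figure D1:**
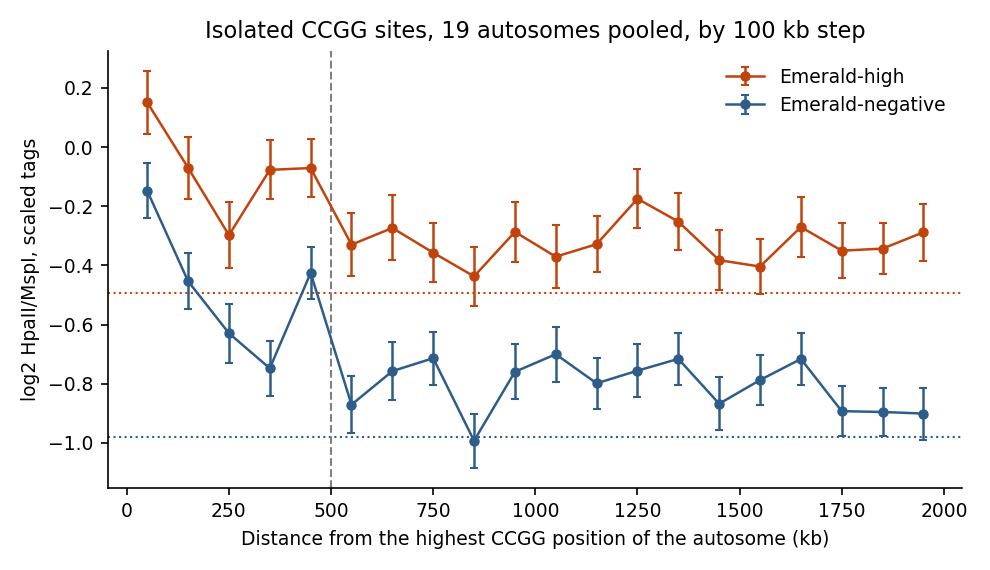
Level (log2 HpaII/MspI of scaled tags) of isolated CCGG sites in 100 kb steps from the highest CCGG position, 19 autosomes pooled, in Emerald-high and Emerald-negative cells. Bars are 95% Poisson intervals, dotted lines the rest of the autosomes (-0.49 and -0.98), and the dashed line is 500 kb; the outermost step is the highest in both fractions, at 0.15 and -0.15.

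Of the 1993 isolated distal sites, 1961 lay more than 2 kb from any dense site. With these alone the distal level exceeded the inner one by 0.26 in the Emerald-high fraction and by 0.34 in the Emerald-negative fraction, and with the 1787 sites more than 10 kb away by 0.30 and 0.41. The log2 difference of MspI tags between Emerald-high and Emerald-negative cells at isolated sites was 0.01 higher in the distal than in the inner window (-0.03 to 0.06), which says nothing of the gradient within a fraction.

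Within each fraction, MspI tags per isolated site, counting sites without tags, were fewer near the ends. They numbered 5.05 in the distal and 5.78 in the inner window of the Emerald-high fraction, and 5.43 in the distal and 6.26 in the inner window of the Emerald-negative fraction, log2 differences of -0.20 and -0.21. HpaII tags per isolated site were slightly more, at 2.91 in the distal and 2.79 in the inner window of the Emerald-high fraction (log2 difference 0.06) and at 3.99 in the distal and 3.65 in the inner window of the Emerald-negative fraction (0.13). Counted per site in this way, the lower MspI number made up most of the rise in the ratio. The distal window also has more sites without any tag, described below. Over the 1420 distal and 5386 inner isolated sites with a tag in any library, MspI tags per site differed by 0.01 in the Emerald-high fraction (-0.02 to 0.04) and by 0.002 in the Emerald-negative fraction (-0.03 to 0.03), on the log2 scale. HpaII tags per site were then 4.08 in the distal and 3.39 in the inner window of the Emerald-high fraction, and 5.60 in the distal and 4.44 in the inner window of the Emerald-negative fraction, log2 differences of 0.27 (0.22 to 0.31) and 0.33 (0.30 to 0.37). Leaving out untagged sites changes the number of sites and no tag sum, so it shifts the log2 differences of all 4 libraries alike. Which enzyme appears to carry the rise therefore depends on whether untagged sites are counted. Its source was not tested.

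In denser neighbourhoods no class had an interval above 0 in both fractions for distal minus inner. Sites with 2 to 4 CCGG had levels of -0.04 in the distal and -0.08 in the inner window of the Emerald-high fraction, and of 0.05 in the distal and -0.10 in the inner window of the Emerald-negative fraction. On the rest of the autosomes this class had -0.33 in the Emerald-high fraction and -0.43 in the Emerald-negative fraction, both below the distal levels. The distal excess over the inner window for this class was 0.04 in the Emerald-high fraction (-0.01 to 0.09) and 0.15 in the Emerald-negative fraction (0.11 to 0.19), and the Emerald-high value depended on the settings. Of 12 alternatives, 8 put its interval above 0 (values of 0.065 to 0.29) and 3 put it below 0. The excess turned negative in both fractions when the distal window was shortened to 250 kb (-0.15 and -0.08) or 100 kb (-0.25 and -0.24), and with sites of at least 10 MspI tags (-0.18 and -0.10). Sites with 5 to 9 CCGG had levels of 1.25 in the distal and 1.27 in the inner window of the Emerald-high fraction, and of 1.72 in the distal and 1.75 in the inner window of the Emerald-negative fraction. Dense sites, the most often cut by HpaII, had 1.75 in the distal and 1.82 in the inner window of the Emerald-high fraction, and 2.42 in the distal and 2.50 in the inner window of the Emerald-negative fraction. For the last 2 classes the intervals of distal minus inner held 0 in both fractions, from -0.17 to 0.03 at dense sites of the Emerald-high fraction and from -0.18 to 0.02 at those of the Emerald-negative fraction. These ranges leave room for a modest difference in either class.

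Between the fractions, the ends of the autosomes followed the pattern of the rest of the genome, with small departures. In the distal 500 kb the difference, Emerald-high minus Emerald-negative, was 0.41 at isolated sites (0.35 to 0.47), a 1.33-fold higher HpaII/MspI ratio. It was -0.09 at sites with 2 to 4 CCGG (-0.14 to -0.03), -0.47 at those with 5 to 9 (-0.55 to -0.39) and -0.67 at dense sites (-0.80 to -0.54). The same classes of the inner window had 0.49, 0.02, -0.48 and -0.68, and those of the rest of the autosomes 0.49, 0.09, -0.46 and -0.72. Over all distal sites the difference was -0.11 (-0.15 to -0.08), against -0.07 in the inner window. This distal value depended on the weighting. It averaged 0.01 ± 0.26 with each autosome given equal weight (SD, 19 autosomes), and it turned positive with only sites of at least 10 MspI tags. Signs of differences hold for scaling to library totals: scaling to dense sites adds 0.72 to every difference and scaling to autosomal isolated sites adds -0.49. The former turns the sign over all sites and in every class but the isolated one, though the dense value stays within counting error of no difference. The latter turns the sign of the isolated class. MspI moved with class too, with 0.23 more log2 tags at dense distal sites in Emerald-high than in the Emerald-negative fraction and -0.11 at isolated ones, and its part in the differences was not tested.

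**Figure D2:**
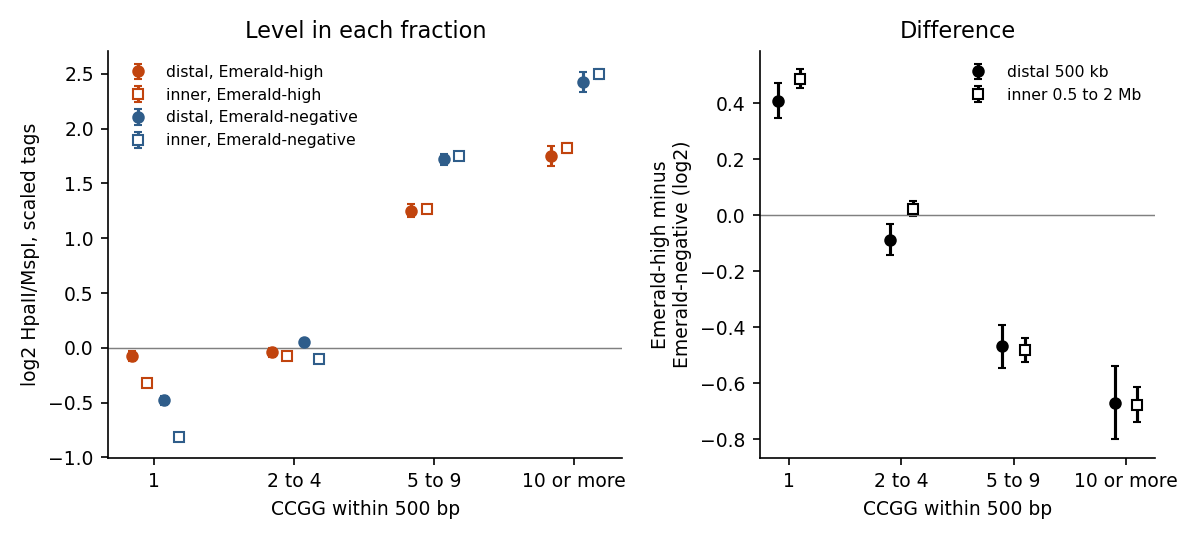
Left, level (log2 HpaII/MspI) by number of CCGG within 500 bp, for distal 500 kb (circles) and inner window (open squares) in Emerald-high and Emerald-negative cells; right, the Emerald-high minus Emerald-negative difference of both windows. Bars are 95% Poisson intervals; isolated sites are higher in the distal window in both fractions, and dense sites fall together at -0.67 and -0.68.

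Library scaling cancels when the difference of the inner window is subtracted from that of the distal window. What remained was -0.08 at isolated sites (-0.15 to -0.01) and -0.11 at sites with 2 to 4 CCGG (-0.17 to -0.05). It was 0.01 at sites with 5 to 9 (-0.08 to 0.10) and 0.01 at dense sites (-0.14 to 0.15). Over all sites it was -0.04 (-0.081 to -0.0056), and -0.07 (-0.11 to -0.03) when the class values were weighted by the share of distal sites in each class, called density-standardised here. With MspI tags alone in place of the ratio, the distal minus inner value over all sites was -0.003 (-0.029 to 0.024). With each autosome given equal weight, the density-standardised value was -0.00 ± 0.19 (SD, 19 autosomes) and was above 0 on 8 of them, and the isolated value was -0.07 ± 0.21 and above 0 on 6. Multiplying the variance by 1.53, the overdispersion between the MspI libraries in 100 kb bins, took the intervals at isolated sites and over all sites across 0.

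Chromosome by chromosome, the distal windows differed widely in level and in sign. Emerald-negative levels over all sites were highest on chromosomes 15, 4 and 19, at 1.12, 1.02 and 1.02, where Emerald-high levels were 0.92, 0.72 and 0.73. They were lowest on chromosomes 8, 12 and 14, at -1.25, -0.79 and -0.65 in the Emerald-negative fraction, where Emerald-high levels were -0.57, -0.47 and -0.25. The difference lay above 0, with its interval, on 4 autosomes, namely chromosomes 8 (0.68), 14 (0.40), 12 (0.32) and 3 (0.28). It lay below 0 on 6, namely chromosomes 9 (-0.32), 4 (-0.30), 19 (-0.29), 15 (-0.20), 2 (-0.18) and 7 (-0.16). The autosomes above 0 had few dense sites with tags. Chromosome 8 had 0 dense sites, and 27 of 27 on chromosome 12, 31 of 31 on chromosome 14 and 19 of 20 on chromosome 3 had no tag. Of those below 0, chromosomes 9 and 7 had 1 and 3 dense sites. The part of this mix of classes in the signs was not tested. By class, the isolated difference was above 0 on 19 of 19 autosomes, between 0.05 (chromosome 1) and 0.89 (chromosome 8), and the dense one was below 0 on all 9 autosomes with at least 20 dense tags in every library and both windows. These counts hold for scaling to library totals: scaled to dense sites, all 19 autosomes had intervals above 0 over all sites, and the dense difference was below 0 on 4 of 9, while scaled to autosomal isolated sites the isolated difference was above 0 on 6 of 19.

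The density-standardised distal minus inner value was highest on chromosomes 13 (0.36, 0.08 to 0.63), 8 (0.27, -0.03 to 0.58) and 18 (0.24, -0.06 to 0.53). It was lowest on chromosomes 1 (-0.35, -0.59 to -0.11), 5 (-0.22, -0.45 to 0.01) and 16 (-0.18, -0.37 to 0.01). The interval was above 0 on 1 autosome and below 0 on 3. The tags behind the highest, chromosome 13, were 782 HpaII and 1310 MspI in the Emerald-high fraction against 1436 and 1400 in the Emerald-negative fraction. Over all sites of chromosome 13 the order was the reverse of the standardised value, with a difference of -0.02 in the distal and 0.14 in the inner window. Chromosome 8 had 386 HpaII and 950 MspI tags in the Emerald-high fraction against 462 and 1071 in the Emerald-negative fraction, and chromosome 18 had 614 and 841 in the Emerald-high against 957 and 832 in the Emerald-negative fraction. At the low end, chromosome 1 had 1020 HpaII and 1463 MspI tags in the Emerald-high fraction against 1825 and 1405 in the Emerald-negative fraction. Chromosome 5 had 698 and 1185 in the Emerald-high against 1242 and 1103 in the Emerald-negative fraction, and chromosome 16 had 1034 and 1394 in the Emerald-high against 1871 and 1445 in the Emerald-negative fraction. On chromosome 1 the value rests on isolated sites and those with 2 to 4 CCGG only. Dense sites had too few distal tags there, with 4 HpaII tags in the Emerald-high fraction. Sites with 5 to 9 CCGG had 479 distal HpaII tags in the Emerald-high and 941 in the Emerald-negative fraction, but under 20 tags in a library of the inner window. The tags given above for chromosome 1 include these unused classes. Isolated sites stood out there: their level was 0.38 higher in the distal than in the inner window of the Emerald-high fraction and 0.92 higher in the Emerald-negative fraction. Chromosomes 11 and 13 went furthest the other way in the Emerald-negative fraction, and in both fractions their isolated levels were lower at the end than further in. In the Emerald-high fraction chromosome 17 (-0.18) lay between them. The distal minus inner value was -0.59 in the Emerald-high and -0.55 in the Emerald-negative fraction on chromosome 11, and -0.17 in the Emerald-high and -0.59 in the Emerald-negative fraction on chromosome 13.

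**Figure D3:**
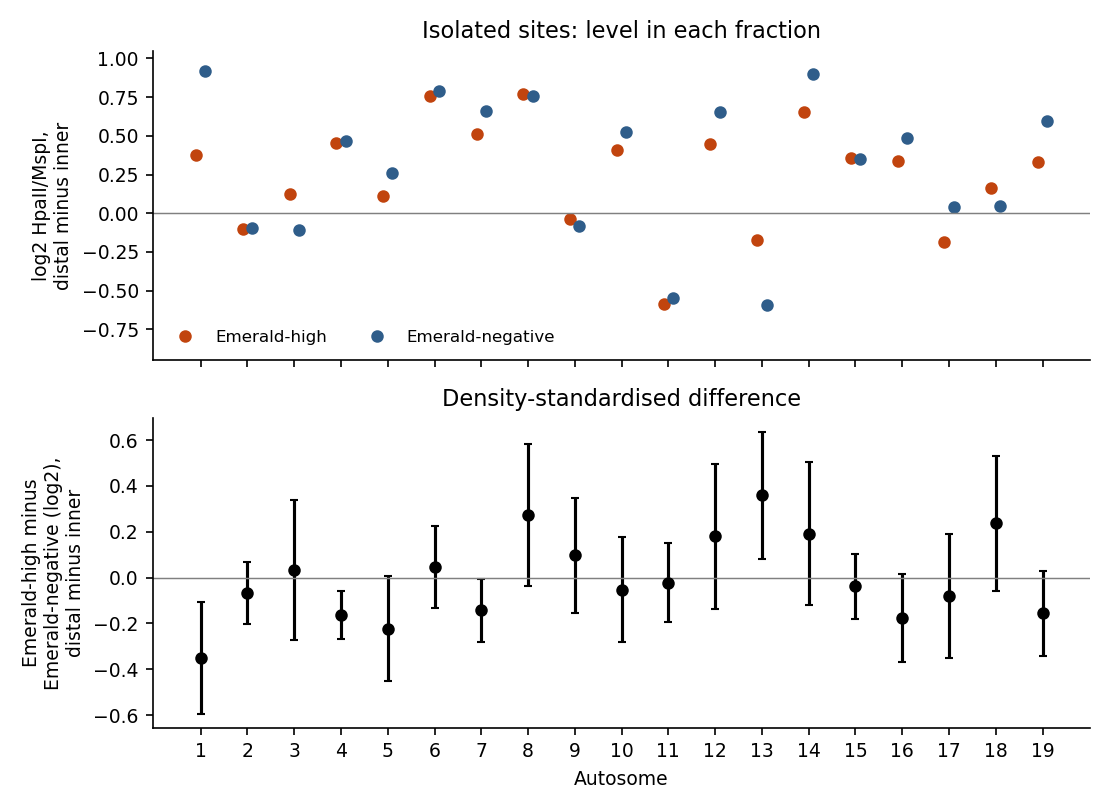
Top, distal minus inner level (log2 HpaII/MspI) of isolated sites on each autosome in Emerald-high and Emerald-negative cells; bottom, density-standardised Emerald-high minus Emerald-negative difference, distal minus inner, with 95% Poisson intervals. Isolated levels are above 0 on 14 of 19 autosomes in each fraction, while the lower panel scatters about 0, from -0.35 (chromosome 1) to 0.36 (chromosome 13).

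Dense sites were joined into clusters where neighbours lay at most 500 bp apart. The distal windows held 51, of which 23 had 20 or more tags in both MspI libraries. Nearly all of these were cut readily by HpaII, and less so in the Emerald-high fraction: the median level was 1.97 in the Emerald-high fraction and 2.66 in the Emerald-negative fraction, and the median difference was -0.63 with quartiles of -0.84 and -0.42. The difference was below 0 at 22 of 23 and its interval was below 0 at 11. Among 5303 clusters of all autosomes with as many tags the median was -0.71, 95.4% were below 0 and 55.1% had an interval below 0. These signs hold for scaling to library totals: scaled to dense sites, 8 of the 23 were below 0 and 0 of the intervals were. Coordinates of clusters are those of the tables, in build mm9, and distances from an end are to the highest CCGG position tabled there. No annotation of that build was used, and genes are named only where a promoter was placed on a cluster by the order and spacing of its CCGG sites.

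The lowest difference was at chr4:155186475-155187223, 442 kb from the end, with 77 HpaII and 40 MspI tags in the Emerald-high fraction against 177 and 24 in the Emerald-negative fraction, which gives -1.18 (-2.00 to -0.35). Next was chr4:155221386-155222138, which holds the promoter of Dvl1, a Dishevelled protein of Wnt signalling, with 97 and 46 tags in the Emerald-high fraction against 261 and 35 in the Emerald-negative fraction (-1.06). The cluster at chr13:120217228-120218509, 63.6 kb from the end and holding the promoter of Paip1, had 111 and 60 in the Emerald-high against 305 and 47 in the Emerald-negative fraction (-1.05). The fourth, chr19:60865931-60866610, had 135 and 60 in the Emerald-high against 349 and 47 in the Emerald-negative fraction (-0.96). In these 4 clusters both enzymes moved: MspI tags were 0.34 to 0.73 log2 higher in the Emerald-high fraction, a part that was not tested. At the other end, chr15:103196742-103197488, which holds the promoter of Itga5, the integrin subunit of the fibronectin receptor, had 108 and 35 tags in the Emerald-high fraction against 240 and 46 in the Emerald-negative fraction, a difference of 0.00 (-0.71 to 0.72). Differences of -0.02, -0.05 and -0.06 were found at chr1:197108028-197108496, chr2:181333529-181333913 and chr16:97984759-97985300, each with an interval that held 0.

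Most of the covered clusters had levels above 1.5, but 2 were rarely cut by HpaII in either fraction. The cluster of 13 sites at chr13:119911327-119912275, 370 kb from the end, had 18 HpaII and 106 MspI tags in the Emerald-high fraction against 40 and 97.5 in the Emerald-negative fraction, which gives levels of -1.82 in the Emerald-high and -1.32 in the Emerald-negative fraction. The cluster of 7 sites at chr1:197108028-197108496 had 4 and 21.5 tags in the Emerald-high fraction against 8 and 25 in the Emerald-negative fraction, with levels of -1.70 in the Emerald-high and -1.68 in the Emerald-negative fraction. Levels below 0 in the Emerald-negative fraction were thus found at 8.70% of covered distal clusters, against 1.79% of those of all autosomes. Both clusters carry fractional tags at some sites, 3 sites on chromosome 13 and 1 site on chromosome 1. The next lowest levels in the Emerald-negative fraction were far above these, at 2.05 for chr4:155577406-155577715, whose sites include 1 of the AW011738 promoter, and at 2.10 for the cluster on chromosome 16 named above.

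**Figure D4:**
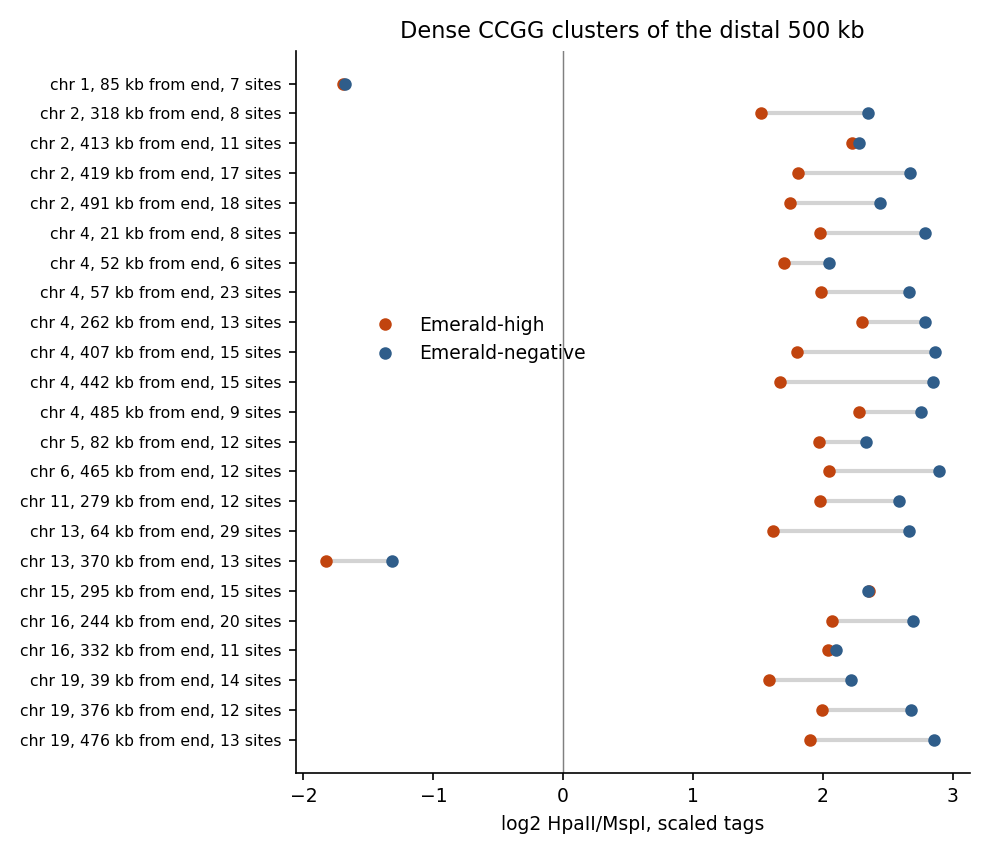
Level (log2 HpaII/MspI) of each of the 23 dense clusters of the distal 500 kb with 20 or more tags in both MspI libraries, in Emerald-high and Emerald-negative cells, labelled by chromosome, distance from the highest CCGG position and number of sites. The cluster on chromosome 1 and that on chromosome 13 at 370 kb from the end lie below 0 in both fractions, and at 22 of 23 the Emerald-high level is the lower.

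Promoters were named by matching the order and spacing of CCGG in each RefSeq promoter to the positions in the tables, a match of spacing and not of coordinates. The bases between the CCGG sites were not compared. Of 6935 promoter sequences with at least 3 CCGG, 94.8% fitted exactly 1 place, and 28 genes had a promoter in the distal windows. Windows and distances are those of the mm9 tables, and places differ between builds. The first Paip1 site is at 120217228 in the tables, while its printed GRCm38.p6 window starts at 119428350. The first Noc2l site is at 155609904, while its printed window starts at 156235765. Distances from the ends in GRCm38.p6 were not computed. The promoters were chosen by this match, with no selection on value, after other values had been seen. Coverage of 10 or more tags in both MspI libraries was reached at 17 of the 28. Their median difference was -0.46, with 15 of 17 below 0, against -0.64 at 67 covered promoters of the inner window and -0.65 at 3777 of all autosomes, of which 87.3% lay below 0.

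Noc2l, 19.4 kb from the highest CCGG position tabled on chromosome 4, had 54 HpaII and 28 MspI tags in the Emerald-high fraction against 143 and 19 in the Emerald-negative fraction, a difference of -1.20 (-2.16 to -0.25). Paip1 had 24 and 18 in the Emerald-high fraction against 58 and 10 in the Emerald-negative fraction (-1.36, -2.67 to -0.05), and Rgs19, 318 kb from the end of chromosome 2, had 57 and 34 in the Emerald-high against 127 and 20 in the Emerald-negative fraction (-1.16, -2.07 to -0.24). The level was nonetheless high in both fractions, at 1.67 in the Emerald-high and 2.88 in the Emerald-negative fraction for Noc2l, 1.14 and 2.50 in the same fractions for Paip1, and 1.47 and 2.63 for Rgs19. With HpaII tags alone the intervals of Paip1 (-0.52) and Rgs19 (-0.40) held 0, and with the larger variance that of Paip1 did. AW011738, the highest, had 58 and 19 in the Emerald-high against 110 and 30 in the Emerald-negative fraction, a difference of 0.50 whose interval (-0.45 to 1.45) also held 0. Rfc3 had 95 and 33 in the Emerald-high fraction against 194 and 35 in the Emerald-negative fraction, a difference of -0.18 (-0.96 to 0.59).

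The other covered promoters had intervals that held 0, so 3 of 17 had one below 0, against a background of 25.4% of covered promoters of all autosomes. Scaled to dense sites, 6 of the 17 differences and 0 of the intervals were below 0. With library totals, the covered promoters whose intervals held 0 included that of Metrnl (-0.89), a secreted factor related to meteorin. Among them were also the zinc finger genes Zfp512b (-0.85) and Prdm15 (-0.47), and Uckl1 (-1.13), a uridine-cytidine kinase homologue. Others were Prpf6 (-0.52), a splicing factor, and Ube2j2 (-0.46), a ubiquitin-conjugating enzyme of the endoplasmic reticulum. Itga5 had -0.33, Dvl1 -0.33, Fyco1 -0.25, 1700028E10Rik -0.17, Gm32313 -0.21 and Sdf4, a calcium-binding protein of the Golgi, 0.05. Fyco1, an adaptor for moving autophagic vesicles, had fractional tags at 5 of its 6 sites. The remaining 11 promoters had too few MspI tags. Among them, Fgf4, a growth factor made by embryonic stem cells, had 22 and 10 tags in the Emerald-high fraction against 52 and 9 in the Emerald-negative fraction. Agrn, the basement membrane proteoglycan agrin, had 5 and 5 in the Emerald-high against 24 and 5 in the Emerald-negative fraction. Zbtb21, a zinc finger protein, had 5 and 6 in the Emerald-high against 18 and 1 in the Emerald-negative fraction. The others were 3110070M22Rik, Tmem267, 4833420G17Rik, Csf2ra, Gm42365, Zfp385a, Grk5 and Prdx3, with between 1 and 13 MspI tags per library. The windows of 3110070M22Rik and Tmem267 lie on opposite strands and share sites.

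Larger blocks were compared as 100 kb bins counted inward from each end. All 95 distal bins had 20 or more tags in both MspI libraries. By a two-sided Fisher's exact test against the ratio of library totals, with Benjamini-Hochberg adjustment over all 23941 autosomal bins and a change of at least 2-fold, 3 distal bins were called higher in the Emerald-high fraction (background 6.63% of all autosomal bins) and 0 were called lower (background 0.0125%). At an unadjusted p under 0.05, 17 distal bins (17.9%) were higher, against a background of 31.3%, and 14 (14.7%) were lower, against 8.07%. At the adjusted p alone 13 were higher (background 21.4%) and 12 lower (background 5.61%). The median bin difference was 0.04 in the distal windows, 0.17 in the inner windows and 0.26 over all autosomal bins. The test compares libraries and not conditions, and dividing the counts by the overdispersion left 1 call.

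The called bins were poorly cut by HpaII in the Emerald-negative fraction, a trait that a call for a higher Emerald-high ratio itself favours. The bin at chr3:159299229-159399228 had 22 HpaII and 55 MspI tags in the Emerald-high fraction against 13 and 59 in the Emerald-negative fraction, a log2 difference of 1.58 ± 0.56 (SE) with an adjusted p of 0.027 by the exact test. At chr8:131335503-131435502 there were 103 and 209 tags in the Emerald-high fraction against 96 and 290 in the Emerald-negative fraction, a difference of 1.33 ± 0.24 (SE). At chr12:120856499-120956498 there were 53.5 and 113 tags in the Emerald-high fraction against 52 and 132 in the Emerald-negative fraction, a difference of 1.02 ± 0.33 (SE) with an adjusted p of 0.013 by the exact test. Levels in the Emerald-negative fraction were -2.22 in the bin on chromosome 3, -1.63 in that on chromosome 8 and -1.37 in that on chromosome 12. Some distal bins without a call had levels in this range, such as -2.16 and -2.02 on chromosome 13 and -1.97 on chromosome 19. The called bins on chromosomes 8 and 12 held 0 dense sites and the called bin on chromosome 3 held 6.

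Single sites were covered thinly. Coverage of 10 or more tags in both MspI libraries was reached at 745 of the 6158 distal sites, and 0 of these were called higher (background 0.102%) or lower (background 0.0297%) by the same exact test adjusted over 218697 sites, with 66 higher and 5 lower at an unadjusted p under 0.05. These are 8.86% and 0.671% of the distal sites, near the backgrounds of 7.77% and 0.892%. The site nearest to a call was chr8:131246829, an isolated site with 10 HpaII and 16 MspI tags in the Emerald-high fraction against 1 and 25 in the Emerald-negative fraction (adjusted p = 0.073 by the exact test, named after its value was seen). The score of a site, 0 for no HpaII tag, 50 for equal scaled tags and 100 for HpaII tags only, had a median of 31.4 in the Emerald-high fraction and 18.1 in the Emerald-negative fraction in the distal windows, against 28.8 and 16.6 in the inner ones. At isolated distal sites the medians were 35.4 in the Emerald-high fraction and 16.2 in the Emerald-negative fraction, and at inner ones 26.5 in the Emerald-high and 13.6 in the Emerald-negative fraction. No HpaII tag was found at 7.65% of distal covered sites in the Emerald-high fraction (exact 95% interval 5.85% to 9.80%) and at 10.5% in the Emerald-negative fraction (8.36% to 12.9%).

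More than a few distal sites could not be read at all. Of the 6158 distal sites, 2135 (34.7%) had no tag in any of the 4 libraries, MspI included, against 18.8% of inner sites and 23.2% of the rest of the autosomes. At dense sites these shares were 46.2% in the distal windows, against 23.3% in the inner windows and 35.0% elsewhere. By autosome the share without any tag ran from 12.5% on chromosome 7 to 65.0% on chromosome 14, with 63.7% on chromosome 12 and 61.3% on chromosome 18. Since MspI cuts in either methylation state, these sites carry no information on methylation, and every distal level above describes the remaining sites only.

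Sites in runs of recurring CCGG spacing were mostly without tags, but most sites without tags lay outside such runs. The runs were found by spacing alone and no sequence was compared, so sites outside them may also lie in repeated sequence. Runs of 5 consecutive CCGG whose spacing, base for base, is found at another place in the tables covered 15.2% of distal sites, against 6.23% of inner sites and 8.25% of the rest. Among dense sites they covered 40.5% in the distal windows, against 18.1% and 30.1%. Of the 938 distal sites in such runs, 84.2% had no tag, against 25.8% of the other distal sites. Those other sites still made up 63.0% of the 2135 without tags, and their share of 25.8% compares with 14.2% outside runs in the inner windows and 17.4% on the rest of the autosomes. Chromosomes 7 and 11 had no site in a recurring run in their distal windows, while chromosomes 14, 18 and 12 had 39.8%, 32.8% and 31.9% of their sites in such runs. Chromosome 10 had 3.51% of its distal sites in such runs and 38.0% without a tag. Among the 51 dense clusters, 9 had no tag at any of their 135 sites, and each of these 9 lay in runs of which the most frequent was found at 401 to 3334 other places. In the cluster at chr14:124814443-124814975 a single run reached 1075 and the median run was found at 45. Of the 42 clusters with tags, 10 held such a run. Outside recurring runs the isolated level of the distal windows exceeded that of the inner ones by 0.25 in the Emerald-high fraction and 0.33 in the Emerald-negative fraction, the same values as with all sites.

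**Figure D5:**
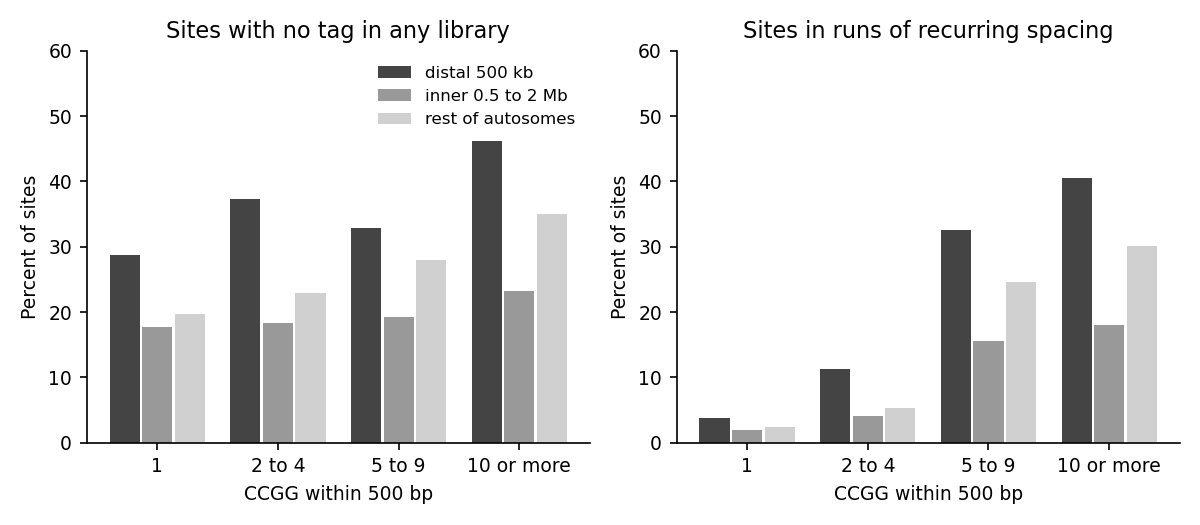
Left, percent of CCGG sites with no tag in any of the 4 libraries; right, percent of sites in runs of 5 CCGG whose spacing recurs elsewhere, both by number of CCGG within 500 bp for the distal 500 kb, the inner window and the rest of the autosomes. The distal bars are the tallest in every class of both panels, at 46.2% and 40.5% for dense sites.

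Some sites carried fractional tags, as would arise if a tag matching several positions were divided among them. They made up 4.48% of distal sites, 1.86% of inner sites, 2.90% of the rest of the autosomes and 14.1% of the lowest 500 kb of each autosome, the centromere-side end. The site at chr19:61274561, 67.8 kb from the end, had 168 HpaII and 86.5 MspI tags in the Emerald-high fraction against 274 and 90.5 in the Emerald-negative fraction. The site at chr1:197066978, 127 kb from its end, had 163 and 78.5 in the Emerald-high against 271 and 79.5 in the Emerald-negative fraction. Both sites had fractional tags in similar numbers, and whether they share tags was not tested. The distal site with most MspI tags was chr9:123995223, also fractional, with 48 HpaII and 351 MspI tags in the Emerald-high fraction against 68 and 257 in the Emerald-negative fraction. The next, chr2:181666359, had whole tags, with 51 and 212 in the Emerald-high fraction against 46 and 194 in the Emerald-negative fraction.

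The opposite, centromere-side ends gave a partial parallel. The lowest 500 kb of tabled sites on each autosome held 6226 sites, of which 4.64% were dense. Isolated sites there had levels of -0.24 in the Emerald-high fraction and -0.64 in the Emerald-negative fraction, and the distal windows exceeded these by 0.17 (0.10 to 0.23) and 0.16 (0.11 to 0.22). Sites with 2 to 4 CCGG went the other way, with distal levels lower than those of the centromere side by differences of -0.25 in the Emerald-high fraction and -0.18 in the Emerald-negative fraction, and so did those with 5 to 9, at -0.08 and -0.14, all with intervals below 0. Dense sites had 0.27 (0.12 to 0.43) in the Emerald-high fraction and 0.11 (-0.04 to 0.26) in the Emerald-negative fraction. The difference between the fractions at isolated sites was the same to within 0.003 at both ends (-0.08 to 0.09).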

How the data were processed

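Genomic DNA of Emerald-high and Emerald-negative cells was cut with HpaII or MspI and tagged, per the labels' protocols. The deposited tables give estimated counts of tags per CCGG position in 2 parts and their sum, and the sum was used. The authors' counts are not scaled to depth. The submitters' processing notes name build mm9. The aligner, and what was done with tags that match several positions: not given in the sources used here. Fractional counts were kept in sums and rounded to whole tags for the exact test.

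Each library was scaled to its total over all sites, so levels are relative, and this scaling hides any change that affects all sites alike. Density-standardised values weight the 4 classes by their share of distal sites. On single autosomes, classes with under 20 tags in any library of either window were left out. Intervals are 95%, Poisson by the delta method for log2 ratios and exact (Clopper-Pearson) for shares. They cover counting error only: tags have no molecular identifiers, each group is 1 library, and autosomes of the same libraries are not replicates. A value was called when its interval left out 0. Bins needed 20 and sites 10 MspI tags in each MspI library, and the 2-fold rule used a pseudocount of 1 tag. Scores are 100 × (2/π) × arctan of the scaled HpaII/MspI ratio.

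The windows, classes, minima and naming rule were chosen with earlier results of these data known. By that rule, every called bin or site is named (at most 6 in each direction), with the 3 highest and 3 lowest autosomes, the 4 clusters with the highest and lowest differences, the 4 with the lowest Emerald-negative level and the 3 sites with most MspI tags; the fourth such site was added after its values were seen. The placing of promoters, the recurring spacing, the 100 kb window, the tags per site of each enzyme and the distance of isolated sites from dense ones were added after seeing the data. Gene names come from RefSeq promoters of GRCm38.p6 with at least 3 CCGG that fitted 1 place on their chromosome: 337 fitted more than 1 place and 24 none.

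Computation was in Python 3.11.15 with matplotlib 3.10.9, numba 0.67.0, scipy 1.17.1, pandas 2.3.3 and numpy 2.4.6. On simulated tags for the comparison of the fractions, the exact test, run on 23941 bins, found 71% of the 100 with a 2-fold and 100% of the 100 with a 4-fold change put in. Run on 218697 sites it found 0% of the 100 at 2-fold and 0% of the 100 at 4-fold, so single-site calls say little here. With so few changed sites under adjustment over all sites, the simulation cannot tell the part of depth from that of sparseness. The exact test was checked against R 4.3.3 and matched in 200 of 200 tables.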

Additional observations from a re-analysis of the deposited data

Results flagged for a closer look

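The Emerald-high minus Emerald-negative difference departed between the distal and the inner window, by intervals of the difference of differences that left out 0, over all sites (-0.0434), at isolated sites (-0.0782), at sites with 2 to 4 CCGG (-0.11) and after density standardisation (-0.0682). Each compares 1 library per group, and the value that gives every autosome equal weight was -0.00 for the density-standardised difference.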

How the results depend on the processing

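No paired analysis was possible because each group is 1 library. Below, an excess is the distal minus the inner level within a fraction, and a contrast is the distal minus the inner Emerald-high minus Emerald-negative difference; the cause of these shifts was not tested, except that rescaling adds a constant to every difference and that fewer sites or autosomes widen intervals.

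The excess at isolated sites stayed above 0, with its interval, in both fractions under all alternatives run. Scaling to dense sites made the distal difference 0.61 over all sites, 0.63 at sites with 2 to 4 CCGG, 0.25 at those with 5 to 9 and 0.050 at dense ones, and left 8 of 23 clusters below 0 (22 with library totals) and 6 of 17 promoters (15), with 0 intervals below 0 in either set and 1 above 0 in each. Of the clusters whose intervals had been below 0, those at chr19:60965670 (0.036), chr2:181254984 (0.028) and chr4:155570832 (0.047) turned, and Noc2l, Paip1 and Rgs19 had intervals that held 0. All 19 autosomes then had intervals above 0. Scaling to isolated sites made the isolated difference -0.078. With sites of at least 10 MspI tags the difference was 0.12 over all sites and 0.079 at 2 to 4; the contrast was -0.045 over all sites, -0.042 at isolated sites and -0.079 at 2 to 4, all with intervals that held 0. The excess there was -0.18 (Emerald-high) and -0.10 (Emerald-negative) at 2 to 4, 0.15 at 5 to 9 (Emerald-negative), and -0.39 and -0.25 at dense sites. Whole tags gave contrasts of -0.039 over all and -0.058 at isolated sites.

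The Emerald-high excess at 2 to 4 gained an interval above 0 with whole tags (0.098), without the 0.1% of sites richest in MspI tags (0.11), against an inner window to 5 Mb (0.13) or the rest of the autosomes (0.29), with a 1 Mb window (0.082), with density within 250 bp (0.10) or 1000 bp (0.17) and outside recurring spacing (0.065). With a 250 kb window the contrast was 0.00082 over all sites and -0.066 at 2 to 4, where the difference was -0.043. The excess was then -0.11 in each fraction over all sites, -0.15 and -0.080 at 2 to 4, and -0.28 and -0.33 at 5 to 9, Emerald-high first. With a 100 kb window it was -0.042 and 0.0088 over all sites, -0.25 and -0.24 at 2 to 4, and -0.39 and -0.35 at 5 to 9. The isolated contrast held 0 with a 1 Mb window (-0.047), an inner window to 5 Mb (-0.041), density within 250 bp (-0.057), equal autosome weights (-0.067) and the larger variance (-0.078, and -0.043 over all sites). At 5 to 9 the excess was 0.080 and 0.13 with a 1 Mb window, 0.15 and 0.18 with an inner window to 5 Mb, and -0.21 and -0.18 with density within 250 bp; at dense sites it was -0.095 (Emerald-negative) with the inner window to 5 Mb. Density within 1000 bp made the difference 0.095 at 2 to 4. Equal autosome weights gave contrasts of -0.039 at 2 to 4, 0.24 at 5 to 9 and -0.0029 density-standardised. With HpaII alone, 7 autosomes had a contrast above 0 at 5 to 9.

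Leaving out each autosome in turn, the contrast ran from -0.076 to -0.0087 over all sites, nearest to 0 without chromosome 4, and from -0.10 to -0.046 at isolated sites, nearest to 0 without chromosome 1. The Emerald-high and the Emerald-negative excess ran from 0.0028 to 0.17 and from 0.011 to 0.25 over all sites, lowest without chromosome 4. In Emerald-high libraries it ran from -0.057 to 0.098 at 2 to 4, from -0.098 to 0.027 at 5 to 9 and from -0.18 to 0.050 at dense sites. In Emerald-negative libraries it ran from -0.15 to 0.034 at 5 to 9 and from -0.23 to 0.036 at dense sites. The lowest values at 5 to 9 and at dense sites came without chromosome 4, and the lowest and highest at 2 to 4 without chromosomes 7 and 9.

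Bins called higher numbered 28 of 95 with scaling to dense sites (48.5% of all autosomal bins), 11 of 186 in 50 kb bins (8.92%), 1 of 38 in 250 kb bins (1.79%), 1 with counts divided by the overdispersion (4.21%) and 13 by adjusted p alone (12 lower). Sites called higher numbered 36 of 745 with scaling to dense sites (4.15% of all sites) and 3 of 121 with a minimum of 20 MspI tags (1.23%). Median scores were 36.1 and 22.0 with a minimum of 5 MspI tags, 28.1 (Emerald-high) with 20, and 10.1 and 3.36 with scaling to dense sites. Sites without an HpaII tag made up 13.0% and 15.6% with a minimum of 5, 0.826% and 4.96% with 20, and 18.4% (Emerald-negative) when that HpaII library was thinned to the Emerald-high depth.

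Single sites are weakly tested: in simulated tags, with 100 of 218697 sites changed 4-fold, no such site was recovered. Of distal sites, 34.7% carried no tag, and intervals cover counting error in 1 library per group.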
